A study of Rattus norvegicus with 13 samples.

Results

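Proteasome subunits and ubiquitin-conjugating enzymes were followed in the liver of pregnant Sprague Dawley rats, mated at a known time and kept on 4 diets. Their probe sets were picked by gene symbol: those whose annotation gave a single symbol beginning with Psma, Psmb, Psmc, Psmd, Psme or Ube2, without the inducible immunoproteasome genes Psmb8 and Psmb9. The rule found 36 of the 4736 genes that the array names alone, read by 60 of its 8740 probe sets other than controls. Of these, 46 stand for 25 proteasome genes and 14 for 11 Ube2 genes, and the families are described apart. A filter on low signal kept 43 proteasome probe sets, with all 25 genes, and 10 Ube2 probe sets of 7 genes, among 5244 probe sets tested.

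TEN-220 (n = 3 arrays) received a diet with no ethanol at 220 kcal per kg of metabolic body weight per day, and EtOH-220 (n = 3) an ethanol diet with as much energy. TEN-160 (n = 3) was undernourished at 160 kcal with no ethanol, and EtOH-160 (n = 4) undernourished at 160 kcal with ethanol. The ethanol dose was 12 g per kg of body weight per day in both ethanol groups. Whether the RNA on an array came from 1 rat or from a pool, and from which day of gestation, is not labelled, so the p-values measure only the spread between these 13 samples, which may be technical. Each sample was hybridised to 1 Affymetrix array, a chip on which a gene is read by 1 or more probe sets, and the signal is a brightness on a linear scale.

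The proteasome is the protease that breaks down most proteins tagged with ubiquitin. Its 20S core is a barrel of alpha subunits, which gate the entrance, and beta subunits, some of which carry the proteolytic sites. The 19S cap, built of ATPases and non-ATPase subunits, binds, unfolds and threads in the tagged protein, and activators of the Psme family can take its place. Ube2 enzymes, also called E2, receive ubiquitin from an activating enzyme and hand it to a substrate together with a ligase (E3). In liver the pathway removes misfolded proteins of the secretory pathway and short-lived metabolic enzymes, and it is known as a target of ethanol metabolism.

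The regulatory sequences of 4 of the genes with calls are shown here. Transcription of many proteasome genes is known to be raised by NFE2L1 and NFE2L2, which bind antioxidant response elements. The core of that element was searched on both strands as TGACNNNGC, with no other motif, in the 250 bases before each transcription start in RefSeq's GRCr8 assembly. Capitals mark the matches, and each sequence runs 5′ to 3′ on the strand of its gene. Ube2g2, at chr20:11005061-11005310 on the minus strand, had 3 matches, at 136, 117 and 60 bases before the start. Psmd1, at chr9:94157721-94157970 on the plus strand, and Psme4, at chr14:108706393-108706642 on the plus strand, had 1 each. Ube2b, at chr10:36763944-36764193 on the minus strand, had none.
Ube2g2: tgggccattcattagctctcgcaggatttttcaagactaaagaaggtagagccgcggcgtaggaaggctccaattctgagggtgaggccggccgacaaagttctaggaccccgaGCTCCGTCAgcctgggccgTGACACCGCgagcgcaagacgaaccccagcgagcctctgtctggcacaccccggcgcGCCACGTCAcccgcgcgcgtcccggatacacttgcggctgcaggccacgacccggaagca
Psmd1: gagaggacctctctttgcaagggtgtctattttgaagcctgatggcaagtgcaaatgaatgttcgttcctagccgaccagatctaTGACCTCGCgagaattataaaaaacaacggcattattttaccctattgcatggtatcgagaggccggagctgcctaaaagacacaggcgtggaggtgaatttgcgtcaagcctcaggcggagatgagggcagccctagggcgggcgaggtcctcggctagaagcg
Psme4: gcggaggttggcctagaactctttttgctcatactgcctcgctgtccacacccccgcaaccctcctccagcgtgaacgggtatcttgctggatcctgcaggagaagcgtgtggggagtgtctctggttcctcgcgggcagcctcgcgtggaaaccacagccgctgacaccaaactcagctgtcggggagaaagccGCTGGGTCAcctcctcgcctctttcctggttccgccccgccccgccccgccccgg
Ube2b: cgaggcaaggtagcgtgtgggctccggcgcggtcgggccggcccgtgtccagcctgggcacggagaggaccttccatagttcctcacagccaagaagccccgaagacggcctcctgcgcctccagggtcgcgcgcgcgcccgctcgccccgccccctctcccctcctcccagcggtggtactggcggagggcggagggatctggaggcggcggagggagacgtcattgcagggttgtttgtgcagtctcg

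Of 24 proteasome genes with an entry, 4 (16.7%) held a match: Psmb2, Psmb5, Psmd1 and Psme4. Of 11 Ube2 genes, 3 (27.3%) did: Ube2d2, Ube2g2 and Ube2q2. Among all 33469 promoters of the table the share was 10.1%. Psma1, Psma2, Psma5, Psma6, Psmb1, Psmb4, Psmc2, Psmc3, Psmd2, Psmd4, Psmd13 and Psme2, all with calls given below, held none. Neither did Ube2b and Ube2g1, which also have calls. A match describes the letters in this window only.

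The arrays of TEN-160 stood apart from the other 10 across all probe sets. They scored 30.5 to 41.6 on the first principal component, which held 30.05% of the variance, against −13.8 to −2.63 elsewhere. The ratio of the 5′ to the 3′ probe set of the spiked bacterial control BioDn was 0.422 to 0.497 on them and 0.132 to 0.210 elsewhere. As a measure of RNA integrity, the GAPDH probe sets for the 3′ and the 5′ end had signal ratios of 1.03 to 1.24 in TEN-160, 1.04 to 1.47 in EtOH-220, 1.505 to 1.73 in EtOH-160 and 1.52 to 2.32 in TEN-220. The same ratio for beta-actin was 1.91 to 2.96 in TEN-160, 1.97 to 3.00 in TEN-220, 1.93 to 2.18 in EtOH-220 and 1.77 to 2.31 in EtOH-160. Array TEN-220 replicate 1 had been deposited on a lower scale and was multiplied by 3.76. Of 9 hepatocyte markers, 8 were on the array, and all 8 were above background on every array. Their summed signal was 200765 to 215521 in TEN-220, 185810 to 210921 in EtOH-220, 162994 to 209813 in EtOH-160 and 202662 to 262332 in TEN-160. In these bulk samples, fewer cells of a type and less RNA per cell cannot be told apart.

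All 43 tested proteasome probe sets were above background, a signal of 46.63, on every array. Most of their movement lay in comparisons that use the TEN-160 arrays. EtOH-160 against TEN-160, called ethanol at 160 kcal below, had 12 proteasome probe sets past an adjusted p of 0.05, which is 27.9% of them beside 22.2% of all probe sets tested. Of these 12, 2 were higher and 10 lower with ethanol, beside 10.1% and 12.1% of all probe sets. TEN-160 against TEN-220, or energy without ethanol, had 9 called, 20.9% beside 18.3% of all. Here 2 were higher and 7 lower in TEN-160, beside 9.12% and 9.15% of all. Both overall shares lie close to those of all probe sets. EtOH-220 against TEN-220, or ethanol at 220 kcal, had 0 called, beside 0.0191% of all. EtOH-160 against EtOH-220, or energy with ethanol, had 0 beside 0.21% of all. EtOH-160 against TEN-220, which joins both changes, had 0 beside 2.19%. At an unadjusted p under 0.05, limma gave 3, 4 and 11 proteasome probe sets in these 3 comparisons, or 6.98%, 9.30% and 25.6%, beside 10.3%, 10.9% and 14.3% of all probe sets.

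Markers of liver cell types also moved with ethanol at 160 kcal, beside the proteasome's falls there. Among the tested markers, 3 of 8 for hepatocytes were lower, with a median of −0.23, and so were 3 of 7 for Kupffer cells and macrophages, with 1 higher and a median of −0.53. Of 4 stellate cell and fibroblast markers 2 were lower, with a median of −0.76, and the 1 tested neutrophil marker was lower, at −2.82. All these counts stand beside 12.1% of all probe sets called lower. Endothelial, bile duct, erythroid and lymphocyte markers, 11 in all, had 0 calls in limma in this comparison; 1 erythroid and 1 lymphocyte marker had an unadjusted p under 0.05. The summed signal of the 6 stellate markers on the array ranged from 1986 to 4437 across TEN-160 arrays and from 1260 to 2159 across EtOH-160 arrays, and that of the 2 neutrophil markers from 96.9 to 1011 and from 18.4 to 121. Their part in the proteasome's changes was not tested.

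**Figure D1:**
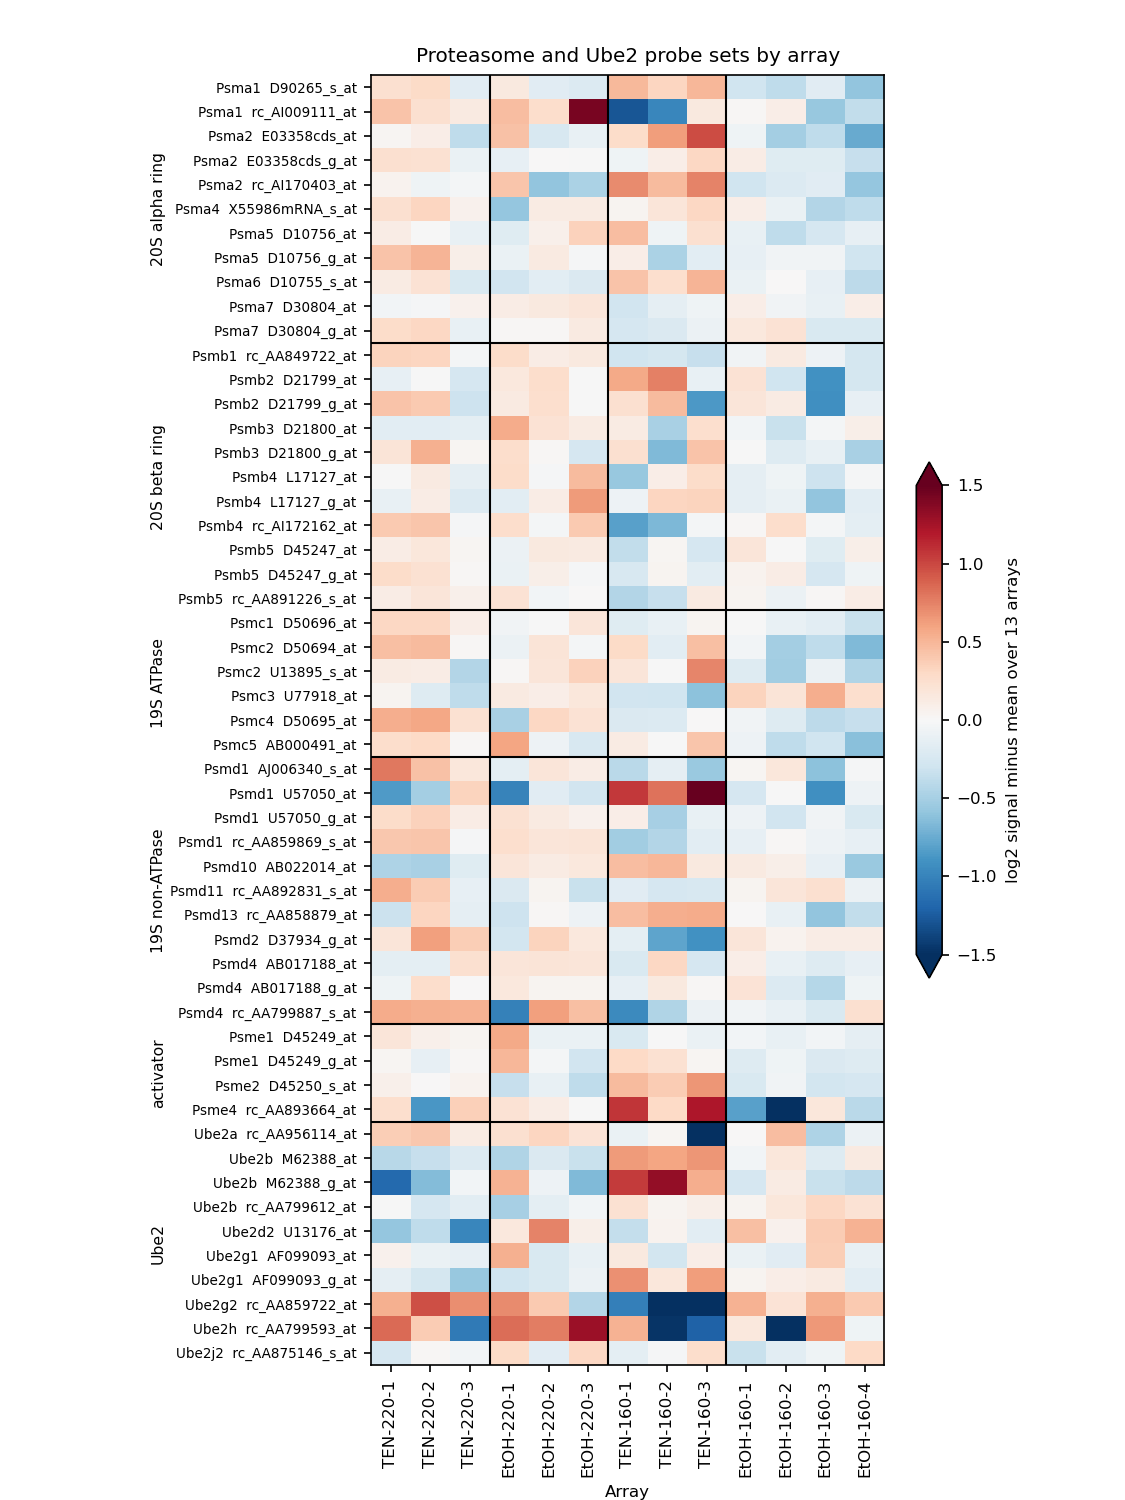
Each row is 1 of the 53 tested probe sets, ordered by role, and each column 1 of the 13 arrays. Colour is the log2 signal minus that probe set's mean over the 13 arrays, cut at 1.5 in either direction; several of the darkest cells lie in the TEN-160 columns, at Psmd1, Psme4, Ube2b and Ube2g2, and the EtOH-160 columns are pale blue in most proteasome rows.

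Apart from the calls, small negative changes were widespread in EtOH-160. Against EtOH-220, 37 of 43 proteasome probe sets (86.0%) had a negative change, beside 54% of all probe sets, and their median was −0.21 beside −0.03 on the log2 scale. Against TEN-220, 38 of 43 (88.4%) were negative, beside 52.4% of all, with a median of −0.24 beside −0.02. These comparisons share the EtOH-160 arrays, and probe sets of 1 gene or complex are not independent, so the shares are a description. By role, the negative changes against EtOH-220 were 10 of 11 in the alpha ring, 11 of 11 in the beta ring, 5 of 6 ATPases, 8 of 11 non-ATPases and 3 of 4 activators. The median stayed negative in each of 23 alternative settings of the processing, at −0.24 to −0.13 against EtOH-220 and −0.32 to −0.19 against TEN-220. The GAPDH 3′/5′ ratio of EtOH-160 lay wholly above that of EtOH-220. Of TEN-220, only replicate 3, at 1.52, lay within the EtOH-160 range, and replicates 1 and 2, at 2.02 and 2.32, lay above it. The median deviation of the proteasome probe sets from their means over 13 arrays was 0.19 and 0.23 on TEN-220 replicates 1 and 2. It was 0.02 on replicate 3 and −0.23 to −0.04 on the EtOH-160 arrays. The part of the GAPDH ratio in the result was not tested. Ethanol at 220 kcal, the other comparison with no TEN-160 array, gave a median of −0.06, with 27 of 43 negative (62.8%) beside 50.1% of all.

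**Figure D2:**
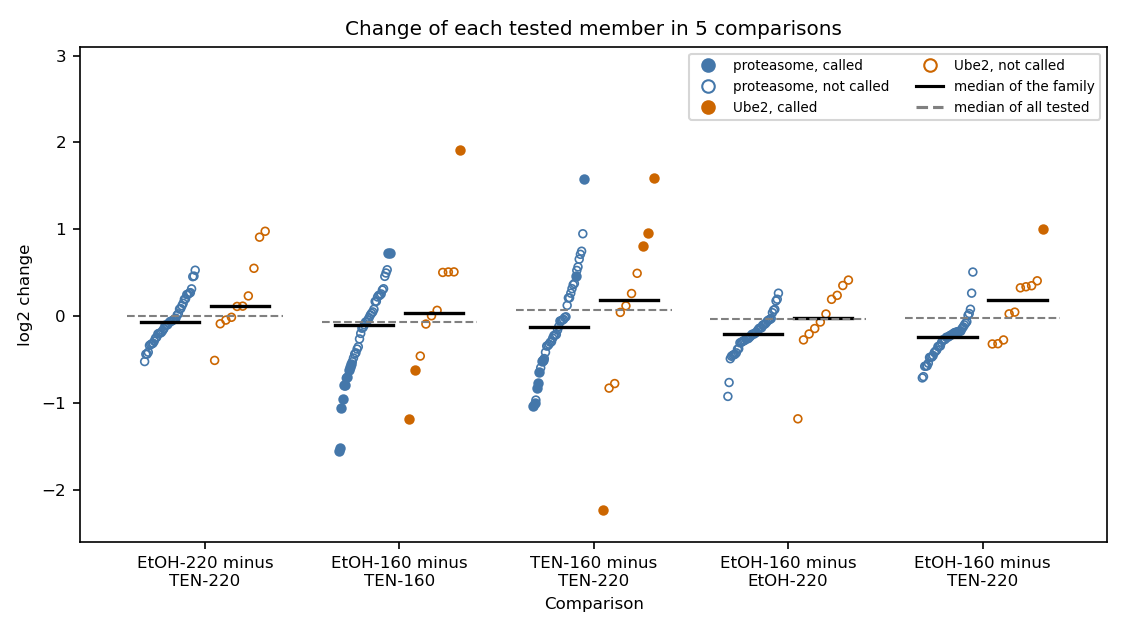
Points are the log2 changes of the 43 proteasome (blue) and 10 Ube2 (orange) probe sets in 5 pairwise comparisons, sorted within each comparison, with filled points for calls at an adjusted p under 0.05. Black bars are the median of the family and dashed grey bars that of all 5244 probe sets; filled points lie in the 2 comparisons with TEN-160 and at Ube2d2 in EtOH-160 minus TEN-220, while nearly all blue points lie below 0 in the last 2 comparisons.

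In the alpha ring, 4 of 11 probe sets were called lower with ethanol at 160 kcal, beside 12.1% of all probe sets, and 0 were called higher, beside 10.1%. Of the other 7, 4 had a positive change. Psma1, an outer-ring subunit, read by D90265_s_at, had signals of 833, 864 and 630 in TEN-220, 783, 627 and 613 in EtOH-220, 988, 887 and 996 in TEN-160 and 577, 544, 631 and 469 in EtOH-160. The TEN-160 arrays were above all other arrays, and the EtOH-160 arrays were the lowest on average. With ethanol at 160 kcal Psma1 fell by 0.79 in log2 signal (SE 0.17, adjusted p = 0.00449), a call kept in all 22 alternatives. Its other probe set, rc_AI009111_at, had a change of the opposite sign in that comparison, 0.50 (SE 0.35, adjusted p = 0.332), with overlapping groups.

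Psma2, also an alpha subunit, had 3 probe sets. E03358cds_at gave 731, 770 and 552 in TEN-220, 978, 610 and 667 in EtOH-220, 867, 1111 and 1417 in TEN-160 and 686, 505, 551 and 425 in EtOH-160. TEN-160 lay above TEN-220 and EtOH-160 without overlap, while 1 EtOH-220 array exceeded the lowest TEN-160 array. This probe set fell by 1.06 with ethanol at 160 kcal (SE 0.23, adjusted p = 0.00516), or 2.08-fold. The second, rc_AI170403_at, gave 1393, 1284 and 1313 in TEN-220, 1784, 891 and 963 in EtOH-220, 2195, 1868 and 2236 in TEN-160 and 1086, 1160, 1191 and 896 in EtOH-160. It was highest on the TEN-160 arrays and fell by 0.96 with ethanol at 160 kcal (SE 0.21, adjusted p = 0.00576). Both calls were kept in all 22 alternatives. The third probe set, E03358cds_g_at, was not called in any comparison: its group means were 1529 in TEN-220, 1361 in EtOH-220, 1520 in TEN-160 and 1266 in EtOH-160.

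Psma6 (D10755_s_at), another alpha subunit, gave 2709, 2897 and 2123 in TEN-220, 2037, 2238 and 2145 in EtOH-220, 3347, 2960 and 3560 in TEN-160 and 2326, 2505, 2282 and 1897 in EtOH-160. The TEN-160 arrays were again above the other 10. Psma6 fell by 0.55 with ethanol at 160 kcal (SE 0.15, adjusted p = 0.0173). The call was lost without TEN-160 replicate 1 or 3 (changes of −0.62 to −0.47 over the arrays left out in turn). It was also lost with a replicate block and with each array centred on its median, at −0.35 (adjusted p = 0.176).

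Psma5 had 1 borderline call, in D10756_g_at, which fell by 0.52 with energy without ethanol (SE 0.17, adjusted p = 0.0497), from 1828 to 2447 in TEN-220 to 1236 to 1841 in TEN-160. These groups overlapped, and the call was kept in 6 of 22 alternatives and when 3 of the 13 arrays were left out in turn. The alpha subunits Psma4 and Psma7 were not called in any comparison. Psma4 had group means of 1159 in TEN-220, 923 in EtOH-220, 1129 in TEN-160 and 867 in EtOH-160.

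In the beta ring, 0 of 11 probe sets were called with ethanol at 160 kcal by limma, beside 22.2% of all probe sets. At an unadjusted p under 0.05 limma gave 3 of the 11 (27.3%), beside 35.4% of all. Among all 43 proteasome probe sets 12 were called. With energy without ethanol 2 of 11 were called lower, beside 9.15% of all probe sets. Psmb4 (rc_AI172162_at), a non-catalytic beta subunit, gave 5088, 5141 and 3824 in TEN-220, 4648, 3793 and 5067 in EtOH-220, 2194, 2419 and 3787 in TEN-160 and 3899, 4656, 3774 and 3495 in EtOH-160. TEN-160 replicates 1 and 2 lay well below all other arrays and replicate 3 close to them. Psmb4 fell by 0.77 with energy without ethanol (SE 0.21, adjusted p = 0.0207). The call was lost when replicate 1 or 2 of TEN-220 or of TEN-160 was left out (changes of −1.01 to −0.62). It was also lost with only the 2 groups in the fit. The other Psmb4 probe sets were not called: L17127_at had group means of 3147 in TEN-220 and 3027 in TEN-160, and L17127_g_at 2313 and 2777.

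Psmb1 (rc_AA849722_at), a structural beta subunit, gave 1435, 1428 and 1116 in TEN-220, 1385, 1236 and 1266 in EtOH-220, 925, 952 and 899 in TEN-160 and 1103, 1257, 1081 and 953 in EtOH-160. The TEN-160 arrays were below all 10 others, by less than 1 signal unit against EtOH-160 replicate 4. It fell by 0.51 with energy without ethanol (SE 0.15, adjusted p = 0.0352). The call was lost without any of TEN-160 replicates 1, 2 and 3 or TEN-220 replicates 1 and 2 (changes of −0.63 to −0.45), and under quantile normalization, at −0.43 (adjusted p = 0.0651).

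Psmb5, the chymotrypsin-like catalytic subunit, had 3 probe sets with like values: with energy without ethanol their changes were −0.34 to −0.30, and with ethanol at 160 kcal 0.08 to 0.24, none called. With median centring, 2 of the 3 were called lower with energy without ethanol, D45247_at at −0.52 (adjusted p = 0.0458) and rc_AA891226_s_at at −0.56 (adjusted p = 0.0322). Its D45247_g_at had group means of 3733 in TEN-220, 3277 in EtOH-220, 3041 in TEN-160 and 3211 in EtOH-160. Psmb2 and Psmb3, both non-catalytic, had 2 probe sets each and no call.

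Among the 19S ATPases, the motor subunits that unfold the substrate, 3 of 6 probe sets were called with ethanol at 160 kcal, beside 22.2% of all. Psmc3 (U77918_at) gave 638, 543 and 475 in TEN-220, 679, 666 and 698 in EtOH-220, 505, 505 and 404 in TEN-160 and 779, 709, 901 and 739 in EtOH-160. All 7 ethanol arrays were above all 6 arrays of groups on diets with no ethanol. Psmc3 rose by 0.73 with ethanol at 160 kcal (SE 0.16, adjusted p = 0.00505), or 1.66-fold, a call kept in all 22 alternatives. At 220 kcal its change was 0.31 (SE 0.17, adjusted p = 0.558), and the interaction, which tests the difference between these ethanol effects, was 0.42 (SE 0.23, adjusted p = 0.273). Psmc3 and Psmd2 were the 2 proteasome probe sets called higher with ethanol at 160 kcal.

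Psmc2 went the other way in both of its probe sets. D50694_at lay at 951, 963 and 705 in TEN-220, 657, 794 and 678 in EtOH-220, 851, 622 and 947 in TEN-160 and 678, 489, 532 and 438 in EtOH-160, and fell by 0.59 with ethanol at 160 kcal (SE 0.20, adjusted p = 0.0443). U13895_s_at fell by 0.62 (SE 0.21, adjusted p = 0.0495). The calls were kept in 7 and in 5 of 22 alternatives, and with 4 and 3 of the 13 arrays left out in turn. Against TEN-220, the changes of EtOH-160 that came nearest to a call were those of Psmc2 D50694_at, at −0.71 (SE 0.20, adjusted p = 0.0784), and of Psmc4. Psmc4 had group means of 1061 in TEN-220, 783 in EtOH-220, 702 in TEN-160 and 654 in EtOH-160, and its change was −0.70 (SE 0.19, adjusted p = 0.0794). Psmc1 and Psmc5 were not called in any comparison.

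**Figure D3:**
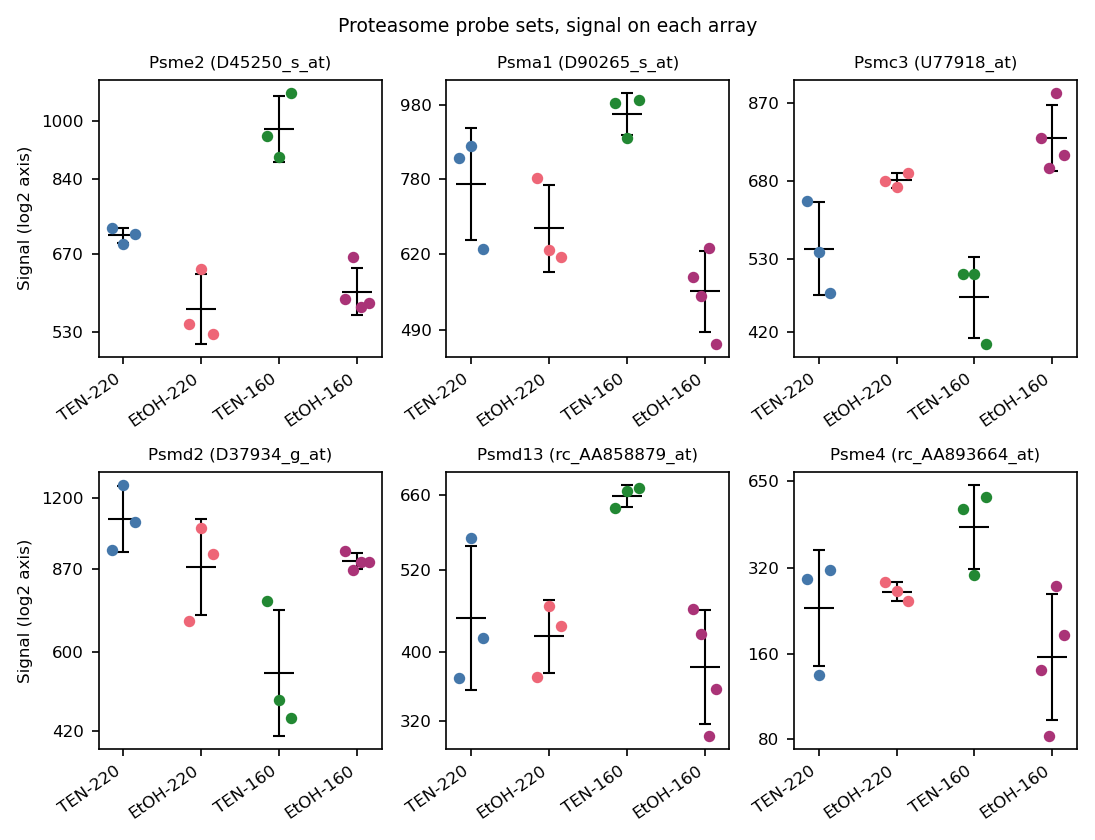
Signal on each array (points, coloured by diet group, log2 axis) for 6 proteasome probe sets of different genes. The bar and whiskers are the mean ± SD of the log2 signal in each group; TEN-160 is the highest group for Psme2, Psma1, Psmd13 and Psme4 and the lowest for Psmc3 and Psmd2.

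The 19S non-ATPase subunits held the lowest and the highest proteasome changes with energy without ethanol, and 5 of 11 probe sets were called there, beside 18.3% of all. Of these, 1 was higher and 4 were lower, beside 9.12% and 9.15%, and 3 of the 5 are probe sets of Psmd1 that moved in opposite directions. Psmd2, the scaffold on which ubiquitin-binding shuttle proteins dock, was read by D37934_g_at at 948, 1271 and 1074 in TEN-220, 690, 1048 and 932 in EtOH-220, 755, 483 and 445 in TEN-160 and 945, 865, 898 and 898 in EtOH-160. TEN-160 was below TEN-220 and EtOH-160, and 1 EtOH-220 array lay inside its range. Psmd2 fell by 1.00 with energy without ethanol (SE 0.21, adjusted p = 0.00627), or 2.00-fold, a call kept in all 22 alternatives. With ethanol at 160 kcal it rose by 0.72 (SE 0.20, adjusted p = 0.02). That second call was lost without TEN-160 replicate 2 or 3, with changes of 0.58 to 0.96 over the arrays left out. It was also lost with a replicate block.

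Psmd1, the largest subunit of the cap and a scaffold of its base, had 4 probe sets that disagreed. U57050_at gave 152, 192 and 343 in TEN-220, 136, 243 and 224 in EtOH-220, 568, 479 and 990 in TEN-160 and 229, 272, 145 and 260 in EtOH-160. The TEN-160 arrays were above the other 10. It rose by 1.58 with energy without ethanol (SE 0.36, adjusted p = 0.00833), or 3.00-fold, and fell by 1.55 with ethanol at 160 kcal (SE 0.33, adjusted p = 0.00522). Both calls were kept in all 22 alternatives.

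The other Psmd1 probe sets pointed down in the same comparison. AJ006340_s_at gave 685, 538 and 447 in TEN-220, 357, 450 and 430 in EtOH-220, 299, 361 and 271 in TEN-160 and 404, 445, 258 and 393 in EtOH-160, and fell by 0.83 with energy without ethanol (SE 0.23, adjusted p = 0.0225). The call ended when TEN-220 replicate 1 or 2, or replicate 1 or 3 of TEN-160, was left out (changes of −0.98 to −0.67). The third, rc_AA859869_s_at, gave 1252, 1267 and 938 in TEN-220, 1129, 1075 and 1080 in EtOH-220, 658, 697 and 845 in TEN-160 and 870, 957, 898 and 868 in EtOH-160, with all TEN-160 arrays below the other 10. It fell by 0.65 (SE 0.16, adjusted p = 0.0134). That call ended when TEN-220 replicate 1 or 2, or replicate 1 of TEN-160, was left out (changes of −0.79 to −0.57). It also ended with only the 2 groups in the fit. The fourth and brightest, U57050_g_at, had a change of −0.42 (SE 0.16, adjusted p = 0.0950). No direction for Psmd1 as a gene can be read from these 4.

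**Figure D4:**
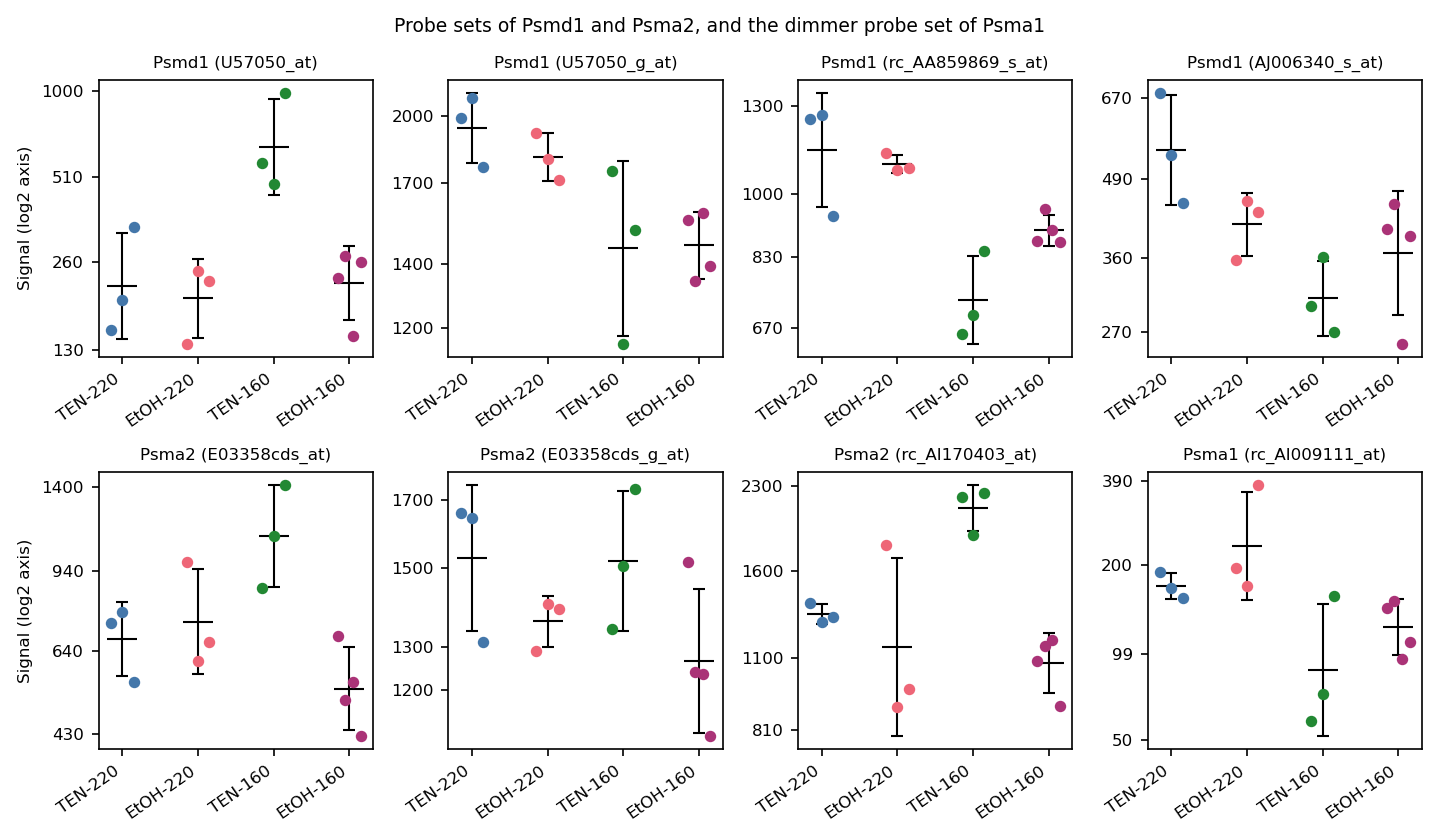
Signal on each array (points, coloured by diet group, log2 axis, with the mean ± SD of the log2 signal) for the 4 probe sets of Psmd1, the 3 of Psma2 and the dimmer probe set of Psma1. The TEN-160 points are the highest in Psmd1 U57050_at and the lowest in rc_AA859869_s_at, so that probe sets annotated to the same gene move in opposite directions.

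Psmd13 (rc_AA858879_at), a subunit of the lid of the cap, gave 367, 575 and 417 in TEN-220, 369, 463 and 434 in EtOH-220, 633, 669 and 675 in TEN-160 and 459, 424, 305 and 355 in EtOH-160. The TEN-160 arrays were above all others and close together. It fell by 0.79 with ethanol at 160 kcal (SE 0.19, adjusted p = 0.00960), a call kept with any array left out and lost with median centring, at −0.59 (adjusted p = 0.0518). Psmd4, a ubiquitin receptor of the cap, had 1 call in 3 probe sets: rc_AA799887_s_at gave 1011, 995 and 991 in TEN-220 and 354, 504 and 649 in TEN-160. It fell by 1.04 with energy without ethanol (SE 0.34, adjusted p = 0.0489), kept in 9 of 22 alternatives and with 4 of the 13 arrays left out in turn. Psmd10, an assembly chaperone also called gankyrin, and Psmd11 were not called. Psmd10 was the dimmest tested member, at 47.6 to 98.6 over the 13 arrays, close to background.

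Among the activators, Psme2, the beta subunit of the interferon-inducible activator that acts with Psme1, had signals of 724, 691 and 712 in TEN-220, 543, 640 and 527 in EtOH-220, 955, 897 and 1090 in TEN-160 and 586, 664, 571 and 578 in EtOH-160. Both ethanol groups lay below TEN-220 and TEN-160 lay above it, with no overlap. Psme2 had the smallest adjusted p of any proteasome probe set: it fell by 0.71 with ethanol at 160 kcal (SE 0.14, adjusted p = 0.00318), kept in all 22 alternatives. It rose by 0.46 with energy without ethanol (SE 0.15, adjusted p = 0.0451), which was kept in 8 of 22 alternatives and with 4 of the 13 arrays left out in turn. With ethanol at 220 kcal the change was −0.32 (SE 0.15, adjusted p = 0.481). Its partner Psme1 was not called: D45249_at had group means of 3456 in TEN-220, 3518 in EtOH-220, 2983 in TEN-160 and 3049 in EtOH-160. The other Psme1 probe set, D45249_g_at, had 3113, 3305, 3598 and 2816 in the same order. With ethanol at 160 kcal D45249_g_at changed by −0.35 (SE 0.16, limma adjusted p = 0.139), with no overlap of these groups, and D45249_at by 0.03. With energy without ethanol the changes were 0.21 and −0.21.

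Psme4, which caps the core in the nucleus and is known as PA200, was read by rc_AA893664_at at 293, 135 and 315 in TEN-220, 287, 265 and 245 in EtOH-220, 517, 303 and 572 in TEN-160 and 140, 82.0, 276 and 186 in EtOH-160. TEN-160 was above EtOH-160, and its lowest array lay inside the TEN-220 range. Psme4 fell by 1.52 with ethanol at 160 kcal (SE 0.38, adjusted p = 0.0118), or 2.87-fold. Without TEN-160 replicate 3 the call was lost, and the change lay between −1.80 and −1.21 over the arrays left out in turn.

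The TEN-160 arrays lay wholly above the other 10 in 6 and wholly below them in 2 of the 43 proteasome probe sets, beside 9.23% and 6.12% of all probe sets, or 15.4% in either direction. The F test over the 4 groups called 12 of 43, beside 20.9% of all. The interaction called 2, 1 in each direction, beside 7.7% of all, with 3.7% higher and 4% lower: Psmd2 at 1.04 (SE 0.29, adjusted p = 0.0448) and Psma2 E03358cds_at at −1.17 (SE 0.33, adjusted p = 0.0448). Each of these calls was kept in 5 of 21 alternatives and lost under quantile normalization (adjusted p = 0.0523 and 0.0506). Of the ratios given above, that of the spiked control set TEN-160 apart from all other groups. The GAPDH ratios of TEN-160 overlapped those of EtOH-220 and lay below those of TEN-220 and EtOH-160. Since the ratio of the spiked control separated all TEN-160 arrays from the rest, diet and a technical difference cannot be told apart in comparisons with TEN-160. The part of these ratios in the results of either family was not tested.

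How arrays were scaled changed the split of directions. Centring each array on its median log2 signal shifted the median change of all probe sets with ethanol at 160 kcal from −0.07 to 0.13, with energy without ethanol from 0.07 to −0.15, in the interaction from −0.07 to 0.22 and with ethanol at 220 kcal from −0.00 to −0.10. The proteasome median went along, from −0.10 to 0.10 with ethanol at 160 kcal, where 3 members were then higher and 6 lower. With energy without ethanol it went from −0.12 to −0.34, with 1 higher and 14 lower, and in the interaction from −0.09 to 0.21, with 2 higher and 0 lower. Among all probe sets the split for ethanol at 160 kcal was 530 higher and 634 lower, and with centring 850 and 350. For energy without ethanol it was 478 and 480, and 264 and 809 with centring, and for the interaction 194 and 210, and 445 and 109. Beside the Psmb5 probe sets, the calls gained with centring in energy without ethanol were all lower: Psma1 rc_AI009111_at, Psmc1, Psmc4, Psmd1 U57050_g_at and Psmd11. Under quantile normalization the proteasome split with energy without ethanol was 4 higher and 5 lower. Centring moved all probe sets alike, so it could not change the gap between the proteasome median and that of all probe sets. Quantile normalization could, and there the proteasome median with energy without ethanol was −0.06 beside −0.03 of all. With ethanol at 160 kcal it was −0.15 beside 0.01. The gap thus depended on the scaling.

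By the brightest probe set of each of the 25 genes, 2 were higher (Psmc3 and Psmd2) and 6 lower (Psma1, Psma6, Psmc2, Psmd13, Psme2 and Psme4) with ethanol at 160 kcal, beside 10.1% and 12.1% of all probe sets. With energy without ethanol, 1 was higher (Psme2) and 4 were lower (Psma5, Psmb1, Psmb4 and Psmd2), beside 9.12% and 9.15%. Over both families, 14 genes had more than 1 tested probe set. Their probe sets agreed in sign for 4 genes with ethanol at 220 kcal, 6 with ethanol at 160 kcal and 5 with energy without ethanol, and for 11 genes in each of the comparisons of EtOH-160 with EtOH-220 and with TEN-220. The 3 proteasome probe sets below the filter, of Psma5, Psma6 and Psme1, had group means of 75.6 or less, and each of these genes had other probe sets that were tested.

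Ube2 genes gave fewer probe sets, and among them the largest change of any member in the 5 pairwise comparisons, that of Ube2g2. With ethanol at 160 kcal, 3 of 10 were called, 1 higher and 2 lower, beside 22.2% of all probe sets. With energy without ethanol, 4 of 10 were called, 3 higher and 1 lower, beside 18.3%. EtOH-160 against TEN-220 gave 1 higher, beside 1.3% of all probe sets higher there, and the interaction 2, 1 in each direction, beside 7.7%. Ethanol at 220 kcal and energy with ethanol gave 0 in limma; at an unadjusted p under 0.05 they gave 1 and 2 of 10, beside 10.3% and 10.9% of all probe sets. The family's median was 0.03 with ethanol at 160 kcal and 0.19 with energy without ethanol, the latter −0.03 with median centring. The F test called 5 of 10, beside 20.9% of all probe sets. TEN-160 lay wholly above the other arrays in 3 and wholly below in 1, beside 9.23% and 6.12%.

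Ube2g2 is an E2 of the endoplasmic reticulum, where it builds ubiquitin chains on misfolded proteins of the secretory pathway. Its probe set rc_AA859722_at gave 273, 370 and 308 in TEN-220, 310, 248 and 139 in EtOH-220, 93.2, 50 and 63.9 in TEN-160 and 271, 218, 275 and 248 in EtOH-160. The TEN-160 arrays were the 3 lowest of the 13, and the lowest of them was just above the background of 46.63. Ube2g2 fell by 2.23 with energy without ethanol (SE 0.29, adjusted p = 0.000308), or 4.70-fold, and rose by 1.92 with ethanol at 160 kcal (SE 0.27, adjusted p = 0.000455), or 3.77-fold. At 220 kcal the ethanol change was −0.51 (SE 0.29, adjusted p = 0.591), and the interaction was 2.43 (SE 0.40, adjusted p = 0.00440). These calls were kept in every alternative run, 22, 22 and 21 of them. The Ube2g2 promoter above held 3 matches to the searched motif, and their part in these changes was not tested.

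Ube2b, an E2 of DNA damage tolerance and histone H2B ubiquitination, moved the opposite way from Ube2g2 in 2 of its 3 probe sets. M62388_at gave 415, 436 and 477 in TEN-220, 403, 474 and 439 in EtOH-220, 862, 833 and 878 in TEN-160 and 537, 619, 484 and 605 in EtOH-160. TEN-160 was above all 10 others, and EtOH-160 was above both 220 kcal groups. It rose by 0.96 with energy without ethanol (SE 0.15, adjusted p = 0.00115), or 1.94-fold, kept in all 22 alternatives. It fell by 0.62 with ethanol at 160 kcal (SE 0.14, adjusted p = 0.00802), lost only with median centring among 22 alternatives, at −0.42 (adjusted p = 0.0533).

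The second Ube2b probe set, M62388_g_at, gave 95.8, 137 and 209 in TEN-220, 310, 204 and 136 in EtOH-220, 445, 536 and 314 in TEN-160 and 181, 235, 171 and 164 in EtOH-160. TEN-160 was again above the others. It rose by 1.59 with energy without ethanol (SE 0.33, adjusted p = 0.00511), kept in all 22 alternatives, and fell by 1.18 with ethanol at 160 kcal (SE 0.31, adjusted p = 0.0149), lost without TEN-160 replicate 2 (adjusted p = 0.0593). Its interaction was −1.73 (SE 0.45, adjusted p = 0.0325), kept in 8 of 21 alternatives and with 4 of the 13 arrays left out in turn. The third and brightest probe set, rc_AA799612_at, was not called, with group means of 649 in TEN-220, 610 in EtOH-220, 777 in TEN-160 and 813 in EtOH-160. Its change was 0.26 (SE 0.16) with energy without ethanol, of the same sign as the other probe sets. With ethanol at 160 kcal it was 0.07 (SE 0.15) and in the interaction 0.15, both of the opposite sign from M62388_g_at. Ube2a, a close paralogue of Ube2b, was not called: it had group means of 741 in TEN-220, 717 in EtOH-220, 417 in TEN-160 and 593 in EtOH-160, with 1 TEN-160 array at 211.

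**Figure D5:**
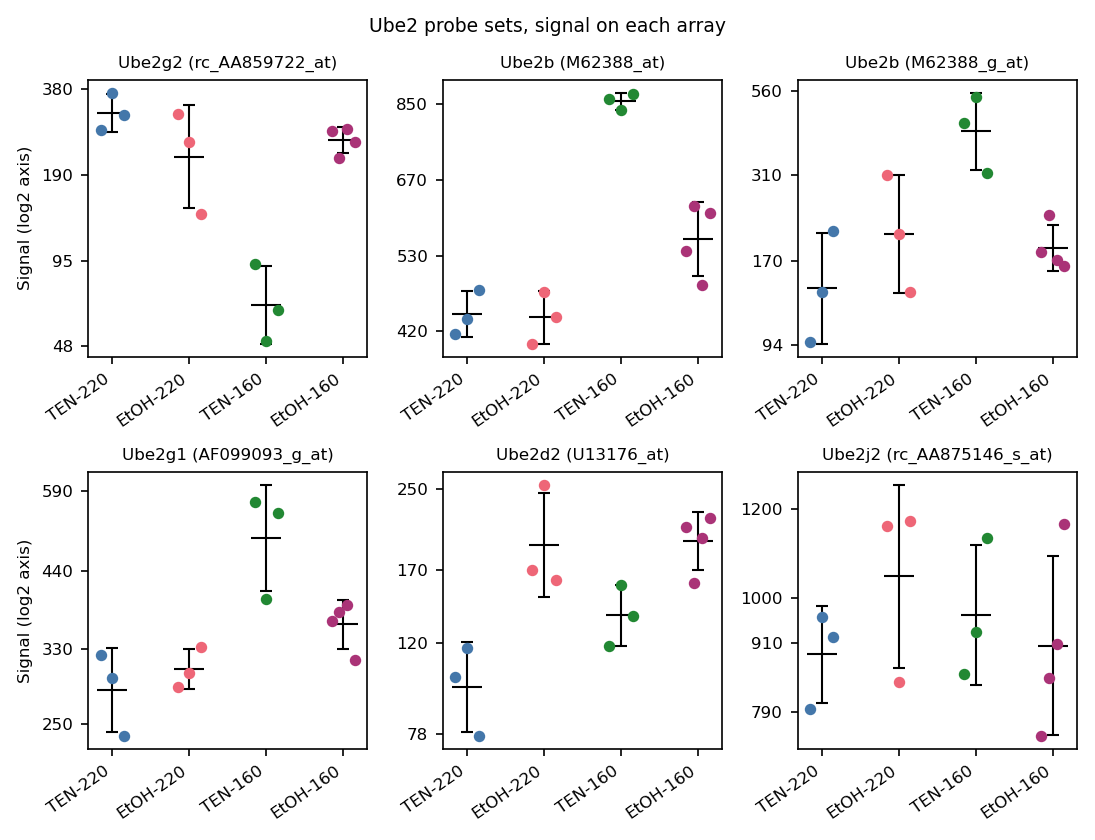
Signal on each array (points, coloured by diet group, log2 axis, with the mean ± SD of the log2 signal) for 6 Ube2 probe sets. TEN-160 is the lowest group for Ube2g2 and the highest for both Ube2b probe sets shown and for the Ube2g1 probe set shown. TEN-220 is the lowest for Ube2d2, and the groups overlap for Ube2j2, which was not called.

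Ube2g1, a relative of Ube2g2, had AF099093_g_at at 322, 296 and 239 in TEN-220, 286, 301 and 332 in EtOH-220, 568, 396 and 544 in TEN-160 and 365, 378, 388 and 317 in EtOH-160. TEN-160 was above all other arrays, in the opposite direction from Ube2g2. It rose by 0.81 with energy without ethanol (SE 0.19, adjusted p = 0.00951), kept with any array left out and lost with median centring, at 0.59 (adjusted p = 0.0550). The other Ube2g1 probe set, AF099093_at, was not called, with group means of 334 in TEN-220, 361 in EtOH-220, 343 in TEN-160 and 344 in EtOH-160.

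Ube2d2, an E2 that serves many ligases, was the only member called in a comparison with no TEN-160 array. U13176_at gave 102, 117 and 77.1 in TEN-220, 170, 255 and 162 in EtOH-220, 119, 158 and 137 in TEN-160 and 209, 160, 198 and 218 in EtOH-160. Every array of the other groups was above every TEN-220 array. It was 2.00-fold higher in EtOH-160 than in TEN-220 (log2 change 1.00, SE 0.23, adjusted p = 0.0375). The change in EtOH-220 was nearly as large, at 0.98 (SE 0.24, adjusted p = 0.196). The call was kept in 12 of 23 alternatives: it was lost without any of TEN-220 replicates 1, 2 and 3 or EtOH-160 replicates 1, 3 and 4 (changes of 0.83 to 1.13). It was also lost under quantile normalization, at 0.96 (adjusted p = 0.0613), with median centring, at 0.98 (adjusted p = 0.0646), and with no filter, a 20% filter or a replicate block.

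Ube2h and Ube2j2, the latter a membrane-bound E2 of the endoplasmic reticulum, were not called. Ube2h was above background on 2 of 3 TEN-220, 3 of 3 EtOH-220, 1 of 3 TEN-160 and 3 of 4 EtOH-160 arrays, and its SE was 0.59 to 0.64 in pairwise comparisons. The 4 Ube2 genes below the filter were dim. Ube2d2b was not above background on any array. Ube2m, the E2 of the ubiquitin-like protein Nedd8, was above it on 1 EtOH-220 array, and Ube2e3 on 1 to 2 arrays of each group. Ube2q2 was above it on all 3 TEN-160 arrays, with group means of 39.6 in TEN-220, 53.0 in EtOH-220, 101 in TEN-160 and 37.7 in EtOH-160, and was not tested.

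The rest of the pathway was sparsely covered. None of the 4 ubiquitin genes listed had a probe set annotated to it alone. The activating enzyme list had 1 tested gene (Nae1), the ubiquitin-like list 1 (Nedd8), the deubiquitinases 1 (Stambp) and the E3 ligases 8, including Huwe1, Mdm2, Nedd4 and Ubr1. Of these 11 genes 0 were called in any comparison by limma, beside 22.2% of all probe sets with ethanol at 160 kcal and 18.3% with energy without ethanol. At an unadjusted p under 0.05, limma gave 1 of 8 E3 ligases with ethanol at 220 kcal, beside 10.3% of all probe sets. It gave 2 each with ethanol at 160 kcal, with energy without ethanol and in the interaction. The shares of all probe sets there were 35.4%, 32.2% and 25.2%. Of 6 genes of assembly, shuttling and regulation, 1 was called, with ethanol at 160 kcal, with energy without ethanol and in the interaction. The shares of all probe sets called there were 22.2%, 18.3% and 7.7%. The gene was Vcp, the ATPase that pulls ubiquitinated proteins out of the endoplasmic reticulum, with group means of 2643 in TEN-220, 2373 in EtOH-220, 1417 in TEN-160 and 2192 in EtOH-160. It fell by 0.90 with energy without ethanol (SE 0.15, adjusted p = 0.00140) and rose by 0.63 with ethanol at 160 kcal (SE 0.14, adjusted p = 0.00644), with an interaction of 0.78 (SE 0.21, adjusted p = 0.0337). Vcp and Ube2g2 both had their lowest group mean in TEN-160. Ube2j2, also an E2 of the endoplasmic reticulum, had its lowest in TEN-220, at 890 beside 966 in TEN-160, and was not called.

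Of 7 genes of the immunoproteasome and of peptide loading, which include Psme1 and Psme2, 3 were called lower with ethanol at 160 kcal, beside 12.1% of all probe sets. With energy without ethanol 1 was called higher, beside 9.12%. Psmb9, an interferon-inducible catalytic subunit, fell by 0.62 (SE 0.16, adjusted p = 0.0162) and B2m, the light chain of class I molecules, by 0.40 (SE 0.12, adjusted p = 0.0246). Psme2 was the third, and the gene called higher with energy without ethanol. The rest of the list did not go along with ethanol at 160 kcal and was not called. Psmb8 changed by −0.07 (SE 0.19), Psme1 D45249_at by 0.03 (SE 0.16), Tap1 by 0.40 (SE 0.29) and Tap2 by 0.29 (SE 0.17). The median of the list was −0.07. Among 7 tested Kupffer cell and macrophage markers, 3 were lower and 1 higher with ethanol at 160 kcal, beside 12.1% and 10.1% of all probe sets. The summed signal of the 8 markers on the array ranged from 9185 to 11021 across TEN-160 arrays and from 6422 to 7958 across EtOH-160 arrays. At 220 kcal it ranged from 8124 to 9550 with no ethanol and from 6858 to 11193 with it. Their part in the changes of Psme2 and Psmb9 was not tested.

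Of 11 genes of autophagy and lysosomal proteolysis, the other main route of protein breakdown, 2 were called with ethanol at 160 kcal, beside 22.2% of all probe sets, and 3 with energy without ethanol, beside 18.3%, so that neither count is far from the share of all probe sets. Ctsd, an aspartic protease, had group means of 1550 in TEN-220, 1353 in EtOH-220, 851 in TEN-160 and 1534 in EtOH-160. It fell by 0.87 with energy without ethanol (SE 0.16, adjusted p = 0.00271) and rose by 0.85 with ethanol at 160 kcal (SE 0.15, adjusted p = 0.00174). The lysosomal membrane protein Lamp1 fell by 0.76 (SE 0.19, adjusted p = 0.0147) and rose by 0.71 (SE 0.18, adjusted p = 0.0121) in the same comparisons. Ctsl, a cysteine protease, was high in both undernourished groups: its means were 3880 in TEN-220, 4250 in EtOH-220, 6530 in TEN-160 and 6466 in EtOH-160, and it rose by 0.75 (SE 0.13, adjusted p = 0.00157) with energy without ethanol and by 0.74 (SE 0.12, adjusted p = 0.00535) in EtOH-160 against TEN-220. No proteasome probe set was called in that last comparison, in which limma called 2.19% of all probe sets.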

How the data were processed

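The authors deposited linear intensity values, the signals of MAS5 per the submitters' processing notes, which name no version. Sample groups came from the titles. The 2%-trimmed mean was 501 on average on 12 arrays and 133 on TEN-220 replicate 1, which was multiplied by 3.76. Signals under the 10th percentile (9.4) were set to it and taken to log2 from the deposited values. The 59 control probe sets and the 40% of the other 8740 with the lowest mean were left out, which left 5244. Background was the 95th percentile of 19 controls for sequences foreign to the rat.

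In R 4.3.3, limma 3.58.1 was fitted to the means of the 4 groups (eBayes, trend), with two-sided tests, Benjamini-Hochberg adjustment over all probe sets of a comparison and calls under 0.05. A change is a difference of mean log2 values, its standard error (SE) is the model's, and group means are geometric. Over all probe sets the pairwise SE had a median of 0.243 to 0.260, a precision limited by how many arrays there are. The steps were tested on simulated data.

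The members, the lists and the rules were chosen with earlier results of these data known. Array-by-array values are given for called members by smallest adjusted p, up to 14 proteasome and 8 Ube2 probe sets, with up to 6 called genes a list. The alternatives were quantile normalization, median centring, other floors and filters, no variance trend, a replicate block, fits to 2 groups or without TEN-160, counts over genes, and leaving out each array. The 6 member-like probe sets naming several genes were left out. Marker lists for 8 liver cell types served as checks. The replicate numbers did not pair the samples: over 18 same-numbered pairs the correlation of deviations was −0.105 to 0.0911. Promoter sequences are RefSeq's, GRCr8, matched by Entrez gene ID for 24 of 25 proteasome and all 11 Ube2 genes. Plots used matplotlib 3.10.9 in Python 3.11.15.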

Additional observations from a re-analysis of the deposited data

Results flagged for a closer look

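Of 53 tested member probe sets, 3 had an EtOH-160 array far from the other 3 of its group by Dixon's criterion, which flags about 1 in 20 groups by chance. Ube2g1 AF099093_at was 444.5 on EtOH-160 replicate 3 and 306.2 to 322.5 on the others. Psme1 D45249_g_at was 3017.6 on replicate 2 and 2732.3 to 2763.3 on the others. Psmb4 L17127_g_at was 1613.2 on replicate 3 and 2175 to 2268.5 on the others. None of these 3 probe sets was called in any comparison.

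In 4 probe sets the ethanol change at 160 kcal differed from that at 220 kcal by the interaction term of limma. The difference was 2.43 for Ube2g2 and 1.04 for Psmd2, and −1.73 for Ube2b M62388_g_at and −1.17 for Psma2 E03358cds_at, all on the log2 scale. Each value uses all 4 groups. The call of Ube2g2 was kept in all 21 alternatives, and those of Psmd2, Psma2 and Ube2b in 5, 5 and 8 of them.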

How the results depend on the processing

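Most counts stayed within 1.5 times their main value. The proteasome count with energy without ethanol was 9, and it was 15 with median centring, 5 with only those 2 groups in the fit and 5 by the brightest probe set of each gene. Leaving out 1 array in turn gave 2 to 12 there (2 when TEN-220 replicate 1 was left out, 3 for TEN-220 replicate 2, 5 for TEN-160 replicate 1 or 2), 9 to 14 with ethanol at 160 kcal, 0 to 1 with both changes and 0 to 2 in the interaction. Proteasome calls with both changes were 1 with only 2 groups in the fit. Proteasome calls in the interaction were 0 under quantile normalization, with no filter and with a 20% filter, and 1 without a variance trend and by the brightest probe set. For Ube2, the brightest probe set gave 1 call with ethanol at 160 kcal, 2 with energy without ethanol and 1 in the interaction. The Ube2 call with both changes fell to 0 under quantile normalization, median centring, no filter and a 20% filter, and the Ube2 interaction to 1 under quantile normalization and median centring. Leaving out 1 array gave 0 to 1 and 1 to 2 Ube2 calls in these, and 4 to 5 with energy without ethanol. With the replicate number as a block, which the data did not bear out as a pairing, proteasome calls in the interaction were 1, Ube2 calls in the interaction 1 and Ube2 calls with both changes 0. Of the single probe sets' tests, 2902 kept their side of the threshold, 164 lost and 16 gained a call, and none turned its direction while called. Most of the 2902 had no call under the main settings, so that number does not say how stable the calls were. Single calls ranged from 5 of 22 alternatives kept, for Psmc2 U13895_s_at, to all 22. The cause of these shifts was not tested. The 3 to 4 arrays a group, the TEN-160 arrays that stand apart and probe sets of a gene that disagree limit what these values show.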
